A study of Xenopus laevis with 42 samples.

Results

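The change between the 32-cell stage and the blastula was followed in the descendants of the D1 blastomere of the frog Xenopus laevis, here called progeny. D1 is the dorsal-animal cell of the early embryo whose lineage contributes to the neural plate. The comparison sets the group Progeny Blastula (stage 8, age 5 hours) against the group Progeny 32Cell (stage 6, age 3 hours). It rests on 6 of the 42 samples of the series, 3 numbered frogs in each group. D1 had been injected with a fluorescent dye, and the tissue label of both groups is fluorescent descendant. In the series the same lineage was also explanted, that is removed from the embryo and kept apart, and the groups Explant Blastula (5 hours) and Explant 32Cell (3 hours) are used for comparison. The remaining progeny stages used are 8-cell (2 hours 15 minutes), 16-cell (2 hours 45 minutes), gastrula (11 hours), early neurula (16 hours) and mid neurula (18 hours). No mutation, drug or other agent is named in the labels for any group. The authors deposited 1 TPM value per gene, tissue and stage, where TPM is a level of transcripts corrected for their length and scaled to a total shared by all columns. The 3 frogs were therefore already combined into 1 pooled column, 2 columns of 14 carry the comparison, and there is no replicate spread to set a difference against. No test was possible, and a row is said to have risen or fallen only when log2(TPM + 1) differed by at least 1 between the columns, which is 2-fold on that scale. A row entered if any of the 7 progeny columns reached 1 TPM, which left 25062 of 44962 rows, 18830 of them with a gene symbol.

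Until shortly after the blastula forms, the frog embryo runs largely on RNA and protein that the mother stored in the egg. Its cleavage cycles are fast, with little or no growth between divisions, and the zygotic genome is switched on broadly only at the mid-blastula transition. Before that transition the level of a maternal message can change through degradation, and its translation through lengthening or shortening of its poly(A) tail. Xenopus laevis is an allotetraploid with a long and a short subgenome, so many genes have 2 homeologs, marked L and S, that are measured as separate rows.

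The molecule is given as total RNA and the series design speaks of mRNA. The sources used here do not give how the libraries selected RNA, and TPM keeps no record of depth, so the depth of each column is unknown. The 7 progeny columns summed to between 998435 and 999035 TPM. Animal-enriched maternal messages were present at both stages, which does not by itself identify the D1 lineage. The 18 rows of the animal-enriched maternal markers summed to 2989 TPM at blastula and 2764 TPM at 32-cell. Of these rows 14 were at 1 TPM or more at each of the 2 stages. The 11 endoderm rows summed to 11.8 TPM at blastula and 10.9 TPM at 32-cell, and the 8 muscle rows to 1.48 TPM at blastula and 4.01 TPM at 32-cell. The 6 epidermis rows summed to 1.49 TPM at blastula and 1.69 TPM at 32-cell, and the 5 neural plate rows to 6.06 TPM at blastula and 5.69 TPM at 32-cell. Of 6 rows for blood markers, 4 were listed at 0 at both stages, and gata1.S and hbg1.L were listed above 0 at 1 stage each, at under 0.1 TPM. The 8-cell column held traces of some later messages. A set of 273 rows lay under 0.1 TPM at both 16-cell and 32-cell and reached 20 TPM at gastrula. Of these, 192 were above 0.1 TPM at 8-cell, against 25 at blastula. The median 8-cell level of the 273 rows was 0.316% of their gastrula level. The choice of rows itself holds 16-cell and 32-cell low, so 8-cell can be set only against blastula here. Counts outside the cleavage range as deposited and groups of rows by level are therefore also given without the 8-cell column. In explants 85 of the 273 rows were above 0.1 TPM at 32-cell, against 51 at blastula, 45 at 8-cell and 14 at 16-cell. The baseline column of the explant comparison thus held such traces as well.

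The composition of the progeny RNA pool differed little between blastula and 32-cell, and a small share of rows passed 2-fold. The list of spindle, kinetochore and checkpoint genes held 12 falls and 3 rises in 110 rows as deposited, and 17 falls and 0 rises with the median-of-ratios scaling. The proteasome list held 9 rises and 0 falls in 76 rows, and 4 and 0 with the scaling. The list of oxidative phosphorylation, the energy-yielding respiratory chain, held 15 rises and 0 falls in 147 rows, and 4 and 2 with the scaling. Differences between lists were not tested. Of the 25062 rows kept, 559 (2.23%) were at least 2-fold higher at blastula and 118 (0.471%) were at least 2-fold lower. The remaining rows lay under 2-fold, and across all rows kept Pearson's r between the log2 levels of blastula and 32-cell was 0.989, a description over rows of the same 2 columns. In bulk tissue, fewer cells of a type and less RNA per cell cannot be told apart. Most of the excess of rises depended on the scaling. Median-of-ratios scaling, with factors taken over all progeny columns, lowered every blastula difference by 0.27 on the log2 scale before the pseudocount. The median difference was then 0 over all rows kept and -0.047 over rows of at least 5 TPM. This scaling left 153 rows higher (0.61%) and 219 lower (0.874%). All 153 of these rises were also rises without the scaling, as were 114 of these falls. The direction of the imbalance between rises and falls therefore turned with this scaling. The calls that held both as deposited and with it were 153 rises and 114 falls. With factors from the 2 compared columns only, the shift was 0.23, and 216 rows were higher and 219 lower. Those counts were nearly equal, so the turn in direction depended on which columns set the factors.

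Other pairs of columns show how large these numbers are for columns without replicates. Between the 8-cell and 16-cell columns, which share nothing with the comparison, 135 rows (0.539%) were at least 2-fold higher at 16-cell and 137 rows (0.547%) were lower. With median-of-ratios scaling these were 123 (0.491%) higher and 162 (0.646%) lower. Between 32-cell and 16-cell, a pair that shares the 32-cell column, 50 rows (0.2%) were higher and 49 rows (0.196%) lower at 32-cell. Among rows averaging at least 10 TPM, the SD across rows of the log2 difference was 0.41 for blastula minus 32-cell (n = 11913 rows), 0.25 for 16-cell minus 8-cell (n = 10491 rows) and 0.27 for 32-cell minus 16-cell (n = 10971 rows). A stricter count asked that blastula lie at least 2-fold outside the range of all 3 cleavage columns. There were 450 rows (1.8%) above and 87 rows (0.347%) below that range, and 90 (0.359%) above and 187 (0.746%) below it with median-of-ratios scaling. With the 8-cell column left out of the range the unscaled counts were 462 (1.84%) above and 91 (0.363%) below. Among the 14776 rows of at least 5 TPM in the higher column, 503 (3.4%) rose and 99 (0.67%) fell. With a minimum of 5 TPM the counts for 16-cell against 8-cell were 72 higher and 20 lower, given here without shares. At the border, brca2.L differed by 1.00004 and counted as higher while dpp8.L differed by 0.9998 and did not. On the other side usp28.L differed by -1.01 and counted as lower while anapc10.L differed by -0.99 and did not.

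**Figure D1:**
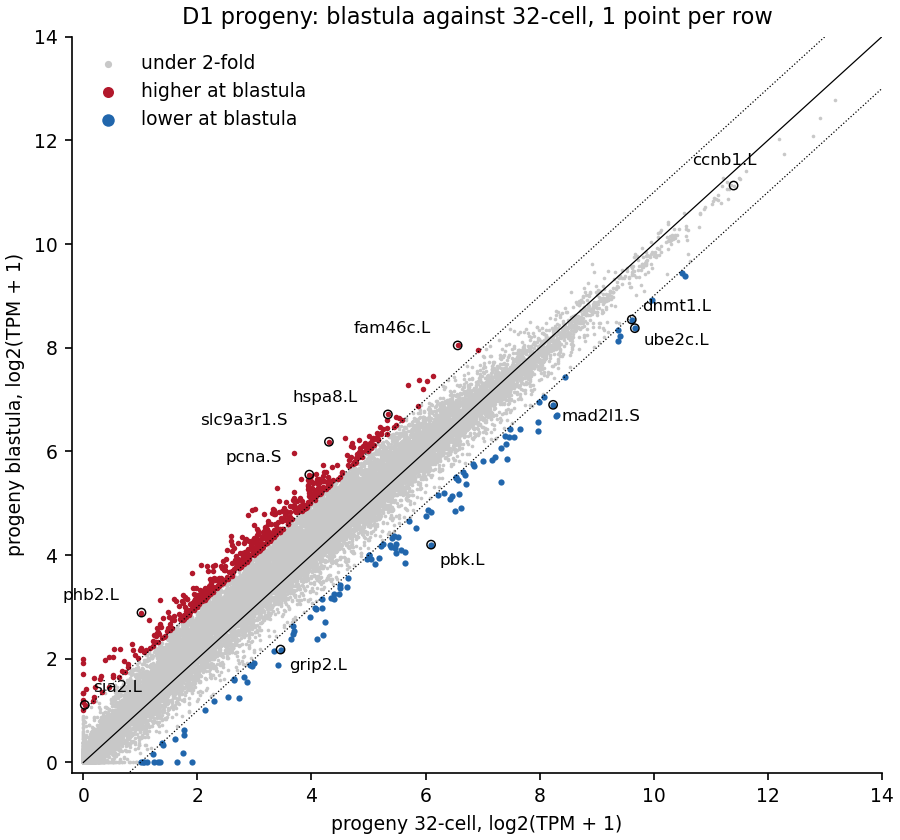
Level of each of 25062 rows at blastula (vertical) against 32-cell (horizontal) in D1 progeny, both as log2(TPM + 1), with 1 pooled column per stage. The solid line marks equal levels and the dotted lines a 2-fold difference; red rows (559) are higher and blue rows (118) lower at blastula, and circles mark genes named in the text, among them ccnb1.L near the solid line.

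Rises and falls came from different levels of the maternal pool. Among the 2187 rows at 100 TPM or more at 8-cell, 1 rose (0.0457%) and 44 fell (2.01%), with a median difference of -0.13. Among the 5398 rows of 5 to 20 TPM at 8-cell, 220 rose (4.08%) and 17 fell (0.315%), with a median of 0.34. Rows of 1 to 5 TPM were similar, with 250 rises (5.4%) and 5 falls in 4628 rows. The gene lists below were not matched for level, so their shares of rises are also to be read against 4.08% and 5.4%. With median-of-ratios scaling the median was -0.40 in the rows at 100 TPM or more and 0.09 in those of 5 to 20 TPM. The scaling divides each column by 1 factor and moves both groups by nearly the same amount. It therefore could not change their order and is no check on it. Grouping rows by the 16-cell column in place of the 8-cell column gave 3 rises and 41 falls in 2154 rows at 100 TPM or more, and medians of -0.12 there and 0.34 at 5 to 20 TPM. The shift also showed in the share of the pool. The 100 rows that led at 8-cell held 18.7% of all TPM at 8-cell, 19.0% at 16-cell, 16.9% at 32-cell, 13.8% at blastula and 12.4% at gastrula, and 93 of them were lower at blastula than at 32-cell. The leading 1000 rows held 40.6% at blastula, against 47.0% at 32-cell, and 820 of them were lower at blastula. Both counts of lower rows are as deposited, and the share of all rows that were lower was not computed. The median difference as deposited was 0.10 over all rows kept and 0.21 over rows of at least 5 TPM. The rows that fell had a median of 68.5 TPM at 8-cell, those that rose 4.74 TPM, and all rows kept 5.64 TPM.

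**Figure D2:**
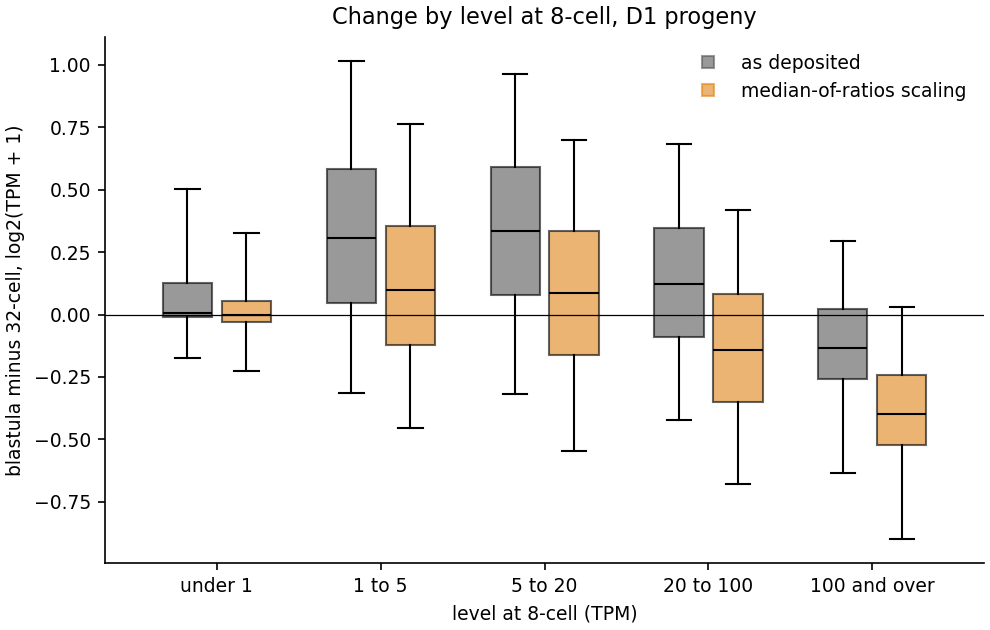
Difference between blastula and 32-cell in log2(TPM + 1) for rows grouped by their level at 8-cell, as deposited (grey) and with median-of-ratios scaling (orange). Boxes span the quartiles with the median as a line, and whiskers reach the 5th and 95th percentiles of rows. The box for 100 TPM and over lies lowest under both scalings, a place that the scaling could not change.

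Spindle, kinetochore and checkpoint genes held the largest count of falls among the lists examined. Of 110 rows, 12 fell (10.9%) and 3 rose (2.73%). Falls made up 0.471% of all rows, 0.67% of rows of at least 5 TPM and 2.01% of rows at 100 TPM or more at 8-cell. The list's median difference was -0.10, against 0.10 over all rows and 0.21 over rows of at least 5 TPM. With median-of-ratios scaling 17 fell and 0 rose, but that scaling lowers differences, so a move in this direction was fixed in advance. Over all rows 0.874% fell and 0.61% rose with it. The mitotic kinase pbk.L had the lowest difference among rows with a symbol and at least 5 TPM. Its level was 195 TPM at 8-cell, 124 TPM at 16-cell, 67.4 TPM at 32-cell, 17.4 TPM at blastula and 17.8 TPM at gastrula, a log2(TPM + 1) difference of -1.89 between blastula and 32-cell. The level was lower at each successive stage up to the blastula. The spindle checkpoint protein gene mad2l1 fell in both homeologs. Its L copy had 28.0 TPM at blastula, against 90.2 TPM at 32-cell (-1.65), and its S copy 118 TPM at blastula, against 301 TPM at 32-cell (-1.34). The gene aurkb encodes the kinase of the chromosomal passenger complex, and only its L row fell. That row had 82.6 TPM at blastula, against 251 TPM at 32-cell (-1.59), while the S row had 164 TPM at blastula, against 153 TPM at 32-cell (0.10). How reads of near-identical homeologs were divided between rows is not stated, so a single copy's value is uncertain.

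Other falls in this list covered several parts of the mitotic apparatus. The microtubule polymerase gene ckap5 had 16.1 TPM in its L copy and 14.2 TPM in its S copy at blastula, against 46.4 and 32.1 TPM at 32-cell. Its spindle partner tacc3.S had 14.5 TPM at blastula, against 35.4 TPM at 32-cell. ube2c.L, the ubiquitin-conjugating enzyme that works with the anaphase-promoting complex to destroy cyclins, had 332 TPM at blastula, against 813 TPM at 32-cell (-1.29). Falls were also seen for the kinetochore scaffold casc5.S (-1.09), the microtubule depolymerase kif2c.S (-1.07), the survivin gene birc5.1.S (-1.05) and the centrosomal kinase aurka.S (-1.02). birc5.1.S remained abundant, at 694 TPM at blastula, against 1438 TPM at 32-cell. Both copies of plk1 stayed under 2-fold as deposited, with differences of -0.85 (L) and -0.90 (S), and passed 2-fold only with median-of-ratios scaling (-1.11 and -1.17). The 3 rows that rose were the kinetochore genes nuf2.L (1.12), ska3.L (1.096) and zw10.S (1.24), all from levels under 20 TPM at 32-cell and none of them 2-fold with the scaling.

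The cyclins that drive the cleavage cycles stayed under 2-fold. ccnb1.L, a mitotic B-type cyclin, had 2239 TPM at blastula, against 2702 TPM at 32-cell (-0.27), and ccnb1.S had 2125 TPM at blastula and 2549.7 TPM at 32-cell. The maternal A-type cyclin ccna1 had 2477 TPM (L) and 2714 TPM (S) at blastula, against 2885 and 3142 TPM at 32-cell. All 11 rows of ccna1, ccna2, ccnb1, ccnb2, ccnb5 and ccne1 lay under 2-fold, with differences between -0.27 and -0.02 as deposited and between -0.54 and -0.29 with median-of-ratios scaling. At gastrula the same ccnb1.L message was at 49.3 TPM and ccna1.L at 42.6 TPM. Of all 63 rows for cyclins, CDKs and their regulators, 3 rose (4.76%) and 2 fell (3.17%), against 2.23% and 0.471% of all rows. The list's median was 0.05 and became -0.15 with the scaling. The falls were cks2.S, a small subunit that binds CDKs, with 279.7 TPM at blastula, against 665 TPM at 32-cell, and cdk1.S with 10.8 TPM at blastula and 24.0 TPM at 32-cell. The rises were both copies of ccnf, an F-box protein with a cyclin box (1.40 for S and 1.23 for L), and the phosphatase gene cdc25c.S (1.12). Among other regulators of CDK phosphorylation, the rows of wee2, cdc25a and chek1 stayed under 2-fold, with differences of -0.63 and -0.38 for wee2 L and S, 0.14 and -0.56 for cdc25a L and S, and -0.10 and -0.15 for the checkpoint kinase chek1 L and S.

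Beyond that list, the 20 lowest rows with a symbol and at least 5 TPM ranged from -1.89 to -1.28. All 20 were also 2-fold lower with median-of-ratios scaling. That scaling lowers differences at these levels, so this was fixed in advance and is no check on them. Their 32-cell levels lay between 9.66 and 813 TPM. ncapd2.S, a subunit of the condensin complex that compacts mitotic chromosomes, had 723 TPM at 8-cell, 554 TPM at 16-cell, 316 TPM at 32-cell and 103 TPM at blastula (-1.60). cdca3.L, a cell division factor linked to mitotic entry, had 102 TPM at blastula, against 311 TPM at 32-cell, and had 461 TPM at gastrula. rfwd3.L, a ubiquitin ligase of DNA repair, had 15.7 TPM at blastula, against 48.9 TPM at 32-cell. Not all of the 20 act in division. The lysosomal membrane protein gene lamp2.L had 29.1 TPM at blastula, against 97.5 TPM at 32-cell, whereas lamp2.S had 106 TPM at blastula and 121 TPM at 32-cell. polr2h.L, a subunit shared by the nuclear RNA polymerases, had 16.6 TPM at blastula, against 42.9 TPM at 32-cell. Others of the 20 were pim3.L, arl6ip1.L, rcbtb1.S, cdc34.S, ghitm.S, chpf.L, shfm1.S and grip2.L, with differences between -1.57 and -1.28. The maintenance DNA methyltransferase dnmt1, abundant in the egg, fell in both copies, to 372 TPM (L) and 324 TPM (S) at blastula, against 783 and 666 TPM at 32-cell. With ncapd2.S, these made up the falls among 82 rows for chromatin assembly and histone supply. Of those rows 3 fell (3.66%, against 0.471% of all rows) and 2 rose (2.44%, near the 2.23% of all rows).

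**Figure D3:**
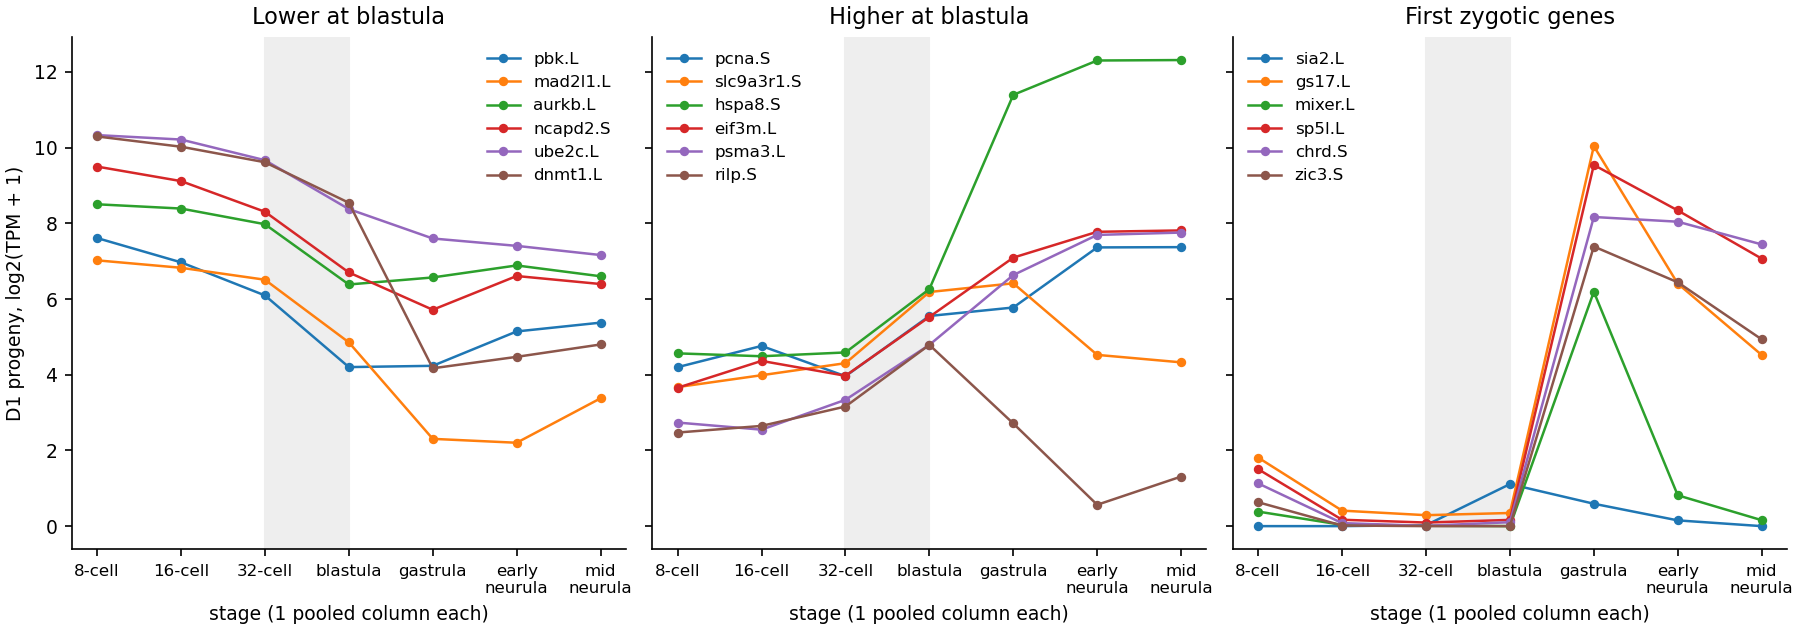
Level in log2(TPM + 1) across the 7 progeny stages, 1 pooled column each, for 6 genes that fell (left), 6 that rose (centre) and 6 of the first zygotic genes (right), with the interval from 32-cell to blastula shaded. The 6 genes on the left are also lower at 32-cell than at 8-cell, and 5 of the 6 zygotic genes stay under 1 TPM from 16-cell to blastula and are above 20 TPM at gastrula.

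The 20 highest rows with a symbol and at least 5 TPM held genes of metabolism, RNA processing, chaperones and replication at low to moderate levels. Their differences ranged from 1.56 to 1.92, with 32-cell levels of 1.03 to 23.1 TPM, and all 20 were still 2-fold higher with median-of-ratios scaling. myl6.S, a light chain of non-muscle myosin, had 9.50 TPM at 8-cell, 17.2 TPM at 16-cell, 6.76 TPM at 32-cell and 28.4 TPM at blastula (1.92). Its 32-cell value was the lowest of the cleavage columns. The membrane scaffold gene slc9a3r1 rose in both copies, with 38.5 TPM (L) and 71.8 TPM (S) at blastula, against 9.46 and 18.8 TPM at 32-cell, and was at 9.63 and 19.1 TPM at mid neurula. ahcy.L, which removes the by-product of methylation reactions, had 26.5 TPM at blastula, against 6.41 TPM at 32-cell. med26.L, a subunit of the Mediator complex of transcription, had 28.7 TPM at blastula, against 7.03 TPM at 32-cell, and 10.6 TPM at gastrula. The constitutive chaperone gene hspa8 had 104 TPM (L) and 75.8 TPM (S) at blastula, against 39.5 and 23.1 TPM at 32-cell, and reached 1965 and 2694 TPM at gastrula. Others of the 20 act in RNA processing and ribosome assembly, namely sympk.S, a scaffold of the polyadenylation machinery (1.64), the spliceosomal helicase snrnp200.L (1.56), lsm1.S of the decapping ring (1.68) and mrto4.L of the large ribosomal subunit pathway (1.59). The homeologs snrnp200.S (0.76), lsm1.L (0.32) and mrto4.S (0.59) stayed under 2-fold. snrnp200.S was the more abundant copy, with 53.8 TPM at blastula, against 31.4 TPM at 32-cell. The lysosomal adaptor rilp.S (1.63) had its highest level of the 7 progeny stages at blastula. rilp.S was at 26.7 TPM there, against 7.94 TPM at 32-cell, and at 5.55 TPM at gastrula. Other members were phb2.L, rps19bp1.L, ict1.S, vps29.S, fabp4.S, pcna.S, cox16.L and rrm1.S.

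DNA replication genes passed 2-fold only upwards as deposited. Of 90 rows, 7 rose (7.78%, against 2.23% of all rows and 3.4% of rows of at least 5 TPM) and 0 fell. Most of the list (85 rows) was at 5 TPM or more. The median of those rows was 0.14, against 0.21 over all rows at that level. With median-of-ratios scaling 4 rose and 1 fell, and the list's median of 0.14 turned to -0.12. The sliding clamp gene pcna rose in both copies, with 46.0 TPM (S) and 41.1 TPM (L) at blastula, against 14.6 and 18.6 TPM at 32-cell. pcna.S had been at 26.1 TPM at 16-cell, above its 32-cell value. rrm1.S, the large subunit of ribonucleotide reductase, had 19.3 TPM at blastula, against 5.90 TPM at 32-cell. The more abundant rrm1.L stayed under 2-fold, with 66.5 TPM at blastula, against 36.3 TPM at 32-cell (0.85). Among subunits of the replicative helicase, mcm5.L had 52.5 TPM at blastula and 20.8 TPM at 32-cell, mcm2.L 88.0 TPM at blastula and 35.6 TPM at 32-cell, and mcm4.S 27.9 TPM at blastula and 12.1 TPM at 32-cell. The less abundant copies mcm5.S (0.14) and mcm2.S (0.47) stayed under 2-fold. The single-strand binding gene rpa2.S rose by 1.21. The 4 rows that held with the scaling were pcna.S, rrm1.S, mcm5.L and mcm2.L.

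The proteasome, the protease that destroys ubiquitin-tagged proteins, had the highest median of all lists. Of 76 rows, 9 rose (11.8%, against 2.23% of all rows and 3.4% of rows of at least 5 TPM). Of the same rows 0 fell (0.471% of all rows). As deposited 68 had a difference above 0 and 8 below, and with median-of-ratios scaling 55 lay above and 21 below. The list's median was 0.55 as deposited, against 0.10 over all rows and 0.21 over rows of at least 5 TPM. With the scaling it was 0.29, against 0 over all rows. The core subunit psma3.L had 5.67 TPM at 8-cell, 4.85 TPM at 16-cell, 9.11 TPM at 32-cell, 26.7 TPM at blastula and 98.3 TPM at gastrula. The regulatory subunit psmd1 had 18.2 TPM (L) and 14.2 TPM (S) at blastula, against 6.14 and 4.64 TPM at 32-cell, the same difference of 1.43 in both. With psmd9.S, which helps assemble the regulatory particle (1.42), these were the 4 rows still 2-fold with the scaling. The other 5 rises were psmc1.L (1.22), psma4.L (1.14), psmd6.S (1.04), psma4.S (1.03) and psmb5.L (1.03).

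Nuclear genes of mitochondrial energy metabolism also held many rises. For oxidative phosphorylation 15 of 147 rows rose (10.2%, against 2.23% of all rows and 3.4% of rows of at least 5 TPM). Of these rows 0 fell, and the median was 0.30. With the scaling 4 rose and 2 fell, and the median was 0.06. The 4 that held were cox16.L, an assembly factor of cytochrome c oxidase (22.8 TPM at blastula, against 6.91 TPM at 32-cell), the complex I genes ndufb2.S and ndufa5.L, and cyc1.S, the cytochrome c1 of complex III (24.1 TPM at blastula and 8.45 TPM at 32-cell). ndufb2.S rests on a low 32-cell value, with 5.395 TPM at 8-cell, 13.3 TPM at 16-cell, 3.98 TPM at 32-cell and 13.1 TPM at blastula. The scaled falls were uqcrq.S (-1.096) and ndufv2.L (-1.001). In the mitochondrial ribosome 6 of 100 rows rose (6%) and 0 fell, led by mrps28.S with 43.1 TPM at blastula, against 16.6 TPM at 32-cell, and 2 held with the scaling. That share is near the 5.4% of rows of 1 to 5 TPM at 8-cell. The list's rows of at least 5 TPM had a median of 0.23, against 0.21 over all rows at that level. Of 51 glycolysis rows, 4 rose (7.84%), namely both copies of the enolase gene eno1 (1.26 for S and 1.06 for L), tpi1.L (1.14) and the regulator pdk1.L (1.12), and 0 held with the scaling. The direction of tpi1.L turned when its L and S rows were summed.

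Protein synthesis lists differed in their counts. Among 97 rows for translation factors 5 rose (5.15%) and 1 fell (1.03%), against 2.23% and 0.471% of all rows. The list's rows of at least 5 TPM had a median of 0.22, near the 0.21 over all rows at that level. With the scaling 3 rises held. The initiation factor subunit eif3m had 45.1 TPM (L) and 17.7 TPM (S) at blastula, against 14.7 and 5.54 TPM at 32-cell. eef1g.L, a subunit of the elongation factor that reloads eEF1A, had 164 TPM at blastula, against 64.1 TPM at 32-cell, after 118 TPM at 16-cell. The fall was eif2ak3.S, the kinase that restrains initiation under endoplasmic reticulum stress, with 85.9 TPM at blastula and 177 TPM at 32-cell. None of the 123 rows for cytosolic ribosomal proteins passed 2-fold under either scaling. Their median was 0.05 as deposited and turned to -0.21 with the scaling, and the widest difference was that of rpl14.S, with 108 TPM at blastula, against 62.0 TPM at 32-cell (0.80). Of 124 rows for splicing factors 0 rose and 1 fell, prpf19.S with 123 TPM at blastula, against 252 TPM at 32-cell.

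**Figure D4:**
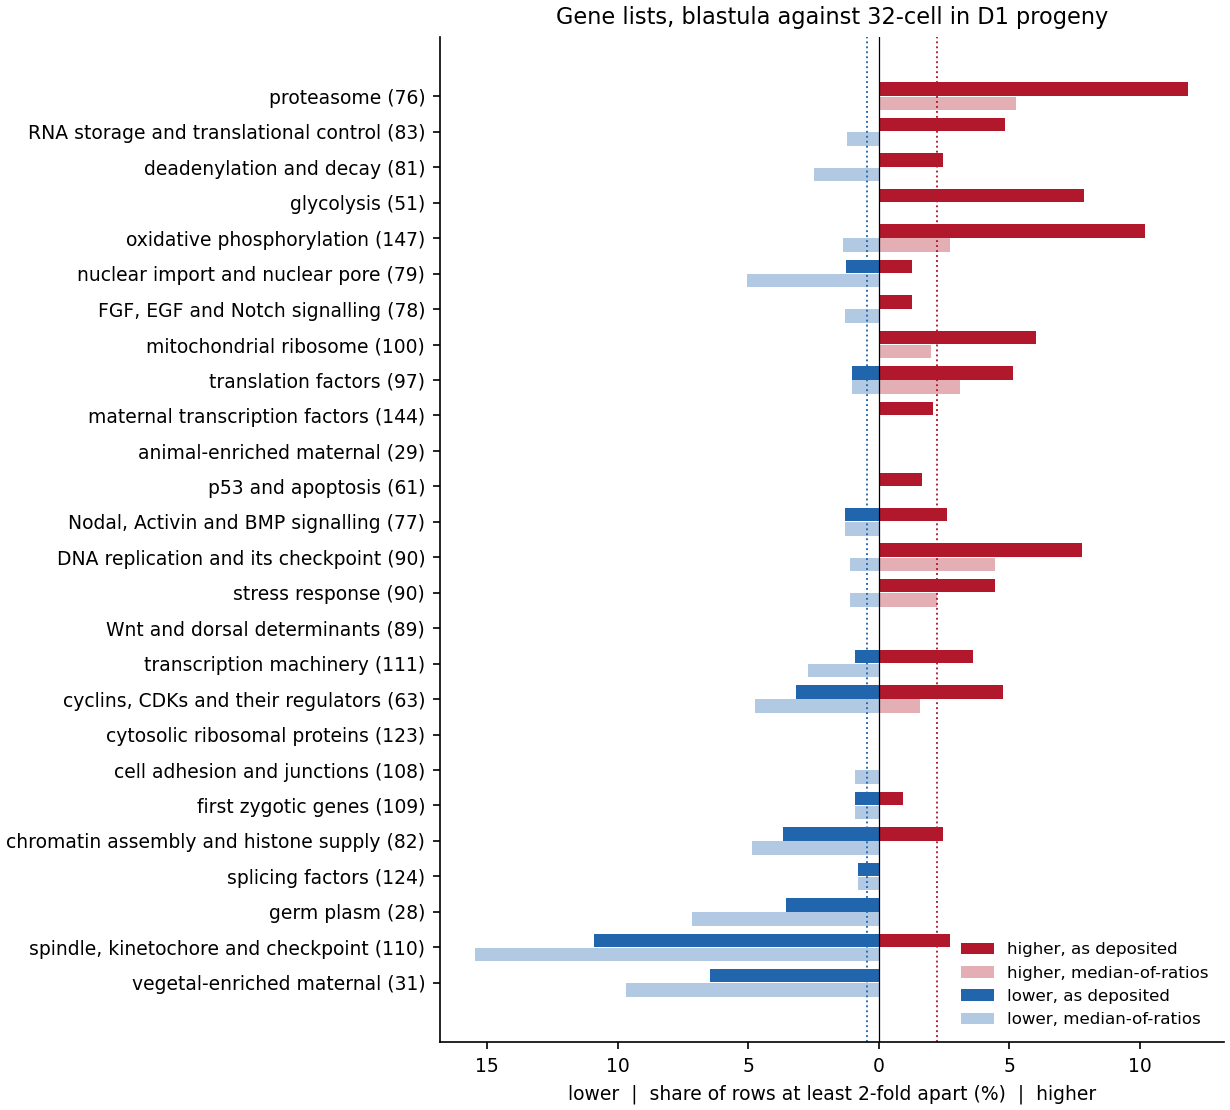
Share of each gene list's rows that were at least 2-fold higher (right, red) or lower (left, blue) at blastula than at 32-cell in D1 progeny, as deposited (dark) and with median-of-ratios scaling (pale), with the number of rows in parentheses and lists ordered by median difference. Dotted lines mark the share over all rows as deposited, 2.23% higher and 0.471% lower; the spindle list reaches furthest to the left and the proteasome list furthest to the right.

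Genes that hold maternal messages in store or remove them form a pair of lists. For RNA storage and translational control 4 of 83 rows rose (4.82%, against 2.23% of all rows and 3.4% of rows of at least 5 TPM). That share is near the 4.08% of rows of 5 to 20 TPM at 8-cell. The list held 0 falls, its median was 0.37, and 0 rises held with the scaling. The 4 were eif4enif1.S, which binds the cap-binding protein (76.0 TPM at blastula, against 32.7 TPM at 32-cell), patl2.L, an oocyte repressor of translation (85.7 TPM at blastula and 37.4 TPM at 32-cell), ybx2.S, a packaging protein of stored messages, and pabpn1l.S, an embryonic poly(A)-binding protein (1.04). ybx2.S was at 48.9 TPM at 16-cell, above both 39.6 TPM at blastula and 18.5 TPM at 32-cell. The cytoplasmic polyadenylation factor cpeb1 had 452 TPM (L) and 425 TPM (S) at blastula, against 509.9 and 479.9 TPM at 32-cell. For deadenylation and decay 2 of 81 rows rose (2.47%, near the share of all rows), dcp1b.S of the decapping complex (1.23) and the N6-methyladenosine reader ythdf2.S (1.12), and 0 fell. The deadenylation adaptor btg4.S, at 899 TPM at blastula, against 1545 TPM at 32-cell (-0.78), and the AU-rich element binding gene zfp36l2.1.L, at 821 TPM at blastula and 1586 TPM at 32-cell (-0.95), passed 2-fold only with the scaling (-1.05 and -1.22).

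For maternal transcription factors and signalling components the share of rises was close to or below that of all rows (2.23%). Of 144 rows for maternal transcription factors 3 rose (2.08%), both copies of the neural factor sox11 and myc.S, and 0 fell, and none passed 2-fold with the scaling. The median was 0.20, against 0.10 over all rows, and -0.01 with the scaling. Among the list's rows of at least 5 TPM the median was 0.24, against 0.21 over all rows at that level. sox11.L had 23.3 TPM at blastula, against 9.32 TPM at 32-cell, and 122 TPM at gastrula. The animal maternal factor foxi2 had 451 TPM (L) and 502 TPM (S) at blastula, against 409.9 and 435 TPM at 32-cell. foxh1.L, which carries Nodal signals to DNA, had 553 TPM at blastula and 518 TPM at 32-cell, the pluripotency factor pou5f3.3.L 919 TPM at blastula and 935 TPM at 32-cell, and the SoxB1 factor sox3.S 767 TPM at blastula and 854 TPM at 32-cell. Of the 89 rows for Wnt signalling and dorsal determinants 0 passed 2-fold under either scaling. Its widest difference at 5 TPM or more was that of the co-receptor lrp5.L (6.53 TPM at blastula, against 3.12 TPM at 32-cell). Of 77 rows for Nodal, Activin and BMP signalling 2 rose (2.6%), the 2 copies of the SMAD corepressor ski (1.05 for L and 1.04 for S). The 1 fall was gdf1.S, at 0.121 TPM at blastula, against 1.34 TPM at 32-cell. That row was listed at 0 at 8-cell and had 0.207 TPM at 16-cell, so its fall rests on the 32-cell value. In the list of FGF, EGF and Notch signalling, 1 of 78 rows rose, the receptor gene notch1.S with 16.1 TPM at blastula, against 6.80 TPM at 32-cell. The median of that list was 0.26 as deposited and 0.07 with the scaling. The 108 rows for cell adhesion and junctions held 0 rises and 0 falls as deposited.

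The other lists held small counts, to be read against 2.23% of all rows higher and 0.471% lower. In the transcription machinery 4 of 111 rows rose (3.6%), among them ercc3.L, a helicase of TFIIH (1.21), and nelfa.S, a subunit of the pausing factor NELF (1.096), and 1 fell, polr2h.L. With the scaling the balance turned, to 0 rises and 3 falls. For nuclear import and the nuclear pore 1 of 79 rose, nutf2.S (1.16), and 1 fell, the pore membrane protein gene ndc1.L with 9.37 TPM at blastula, against 21.6 TPM at 32-cell. With the scaling these became 0 rises and 4 falls. For the stress response 4 of 90 rows rose, both copies of hspa8, the endoplasmic reticulum chaperone hspa5.L (1.03) and the superoxide dismutase sod1.L (1.06). With the scaling hspa5.L and sod1.L were under 2-fold. For p53 and apoptosis 1 of 61 rose, the death-domain adaptor fadd.L (1.02). The 29 animal-enriched maternal rows held 0 rises and 0 falls under either scaling.

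Vegetal and germ plasm messages, which are stored at the opposite pole and passed to few animal cells, were present at both stages. Of 31 vegetal-enriched rows 2 fell (6.45%, against 0.471% of all rows), grip2.L and gdf1.S, and 0 rose, with a median of -0.20 (-0.44 with the scaling). grip2.L had 5.72 TPM at 8-cell, 9.86 TPM at 16-cell, 9.98 TPM at 32-cell and 3.53 TPM at blastula. gdf1.S was listed at 0 at 8-cell and had 0.207 TPM at 16-cell, 1.34 TPM at 32-cell and 0.121 TPM at blastula. Its fall thus rests on the 32-cell value alone. The germ plasm list held 0 rises and 1 fall, again grip2.L, in 28 rows (3.57% lower), with a median of -0.08. nanos1.L, a germ plasm repressor of translation, had 18.5 TPM at blastula, against 36.7 TPM at 32-cell (-0.95, and -1.20 with the scaling). The T-box gene vegt.L, which specifies endoderm, had 162 TPM at blastula and 228 TPM at 32-cell, and dnd1.L, needed for germ cell survival, 74.2 TPM at blastula and 113 TPM at 32-cell. The 21 marker rows of this class summed to 522 TPM at blastula, against 675 TPM at 32-cell. In explants the sum was 358 TPM at blastula, against 432 TPM at 32-cell. The vegetal-enriched list, however, held 0 rises and 0 falls in explants, with a median of 0.04. The germ plasm list held 1 rise and 0 falls there, with a median of 0.11. As deposited, both medians are opposite in sign to those of progeny. Over all rows the median was 0.13 in explants and 0.10 in progeny, so both lists lay below it in each tissue. Median-of-ratios scaling lowers explant differences by 0.34 before the pseudocount, which is more than the explant median of either list. Scaled explant medians of these lists were not computed, so the contrast in sign may depend on the scaling.

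The first genes transcribed by the embryo itself were mostly under 1 TPM at both stages. Of 109 rows for first zygotic genes 89 were under 1 TPM at 32-cell. Their median level was 0.0526 TPM at blastula, against 0.0210 TPM at 32-cell, and 43.9 TPM at gastrula. At blastula 21 of the 89 were listed at 0 and 53 were above their 32-cell value. The matching share among other rows under 1 TPM was not computed, so the 53 cannot be read as an onset of transcription. The 2 that reached 1 TPM at blastula were sia2.L and szl.L. sia2.L is a homeobox activator of the organizer induced by maternal Wnt signalling, and was the only rise of the list. It was listed at 0 at 8-cell and 16-cell and had 0.0173 TPM at 32-cell, 1.16 TPM at blastula and 0.507 TPM at gastrula (1.09, and 0.87 with the scaling). szl.L, a secreted regulator of BMP signalling, had 1.49 TPM at blastula, against 0.993 TPM at 32-cell. sia2.S had 0.912 TPM at blastula, against 0.208 TPM at 32-cell, and nodal6.L, a maternally induced Nodal ligand, had 0.390 TPM at blastula and was listed at 0 at 32-cell. In explants sia2.L had 0.0806 TPM at blastula and was listed at 0 at 32-cell. Genes that lead the list at gastrula were low, with gs17.L at 0.272 TPM at blastula, against 0.222 TPM at 32-cell, and 1052 TPM at gastrula, and with mixer.L listed at 0 at blastula and at 72.1 TPM at gastrula. The fall of the list was cyp26a1.L, a retinoic acid degrading enzyme whose message was already maternal, with 76.8 TPM at blastula, against 175 TPM at 32-cell. Over the whole table, 503 rows were under 1 TPM in the 3 cleavage columns and at 1 TPM or more at blastula, 19 of them 2-fold higher than at 32-cell, and 0 reached 5 TPM. At gastrula 1135 rows of that kind reached 5 TPM, and 69 of these had been at 1 TPM or more at blastula.

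The differences of the 2 homeologs of a gene were correlated, but most pairs that passed 2-fold did so in 1 copy only. In 6669 pairs with both copies kept, 287 held at least 1 rise and 42 held 2, while 51 held at least 1 fall and 12 held 2. With median-of-ratios scaling 72 held at least 1 rise and 9 held 2, while 99 held at least 1 fall and 23 held 2. Over all rows 2.23% rose and 0.471% fell as deposited, and 0.61% and 0.874% with the scaling. The number of pairs with 1 rise and 1 fall was 0, as deposited and with the scaling. Because rises and falls were both rare, few such pairs could arise even between unrelated copies. How many was not computed, so this 0 carries little weight. Pearson's r between the differences of L and S was 0.588 across these pairs, which share the same columns and may share reads. The 12 pairs that fell in both copies, named here after their values were seen, were arl6ip1, ckap5, cystm1, dnmt1, enpp2, lamc1, mad2l1, nfkb2, plk3, rcbtb1, rfwd3 and trim37. Among the pairs that rose, also named after their values were seen, fam46c was the most abundant at blastula, with 263 TPM (L) and 73.7 TPM (S), against 93.5 and 27.6 TPM at 32-cell. fam46c encodes a poly(A) polymerase. Both copies of kansl1 and of kansl3, subunits of a histone acetyltransferase complex, rose as well, by 1.41 and 1.296 for kansl1 L and S and by 1.33 and 1.45 for kansl3 L and S. L rows made up 58.7% of the rises with a symbol, 48.7% of the falls and 56.8% of all rows kept with a symbol.

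Most rows that fell were also lower at 16-cell than at 8-cell. Of the 118 falls, 90 were lower at 16-cell than at 8-cell, against 44.2% of all rows, columns that the comparison did not use. Of the 559 rises, 446 were higher at 16-cell than at 8-cell, against 50.8% of all rows. The median 16-cell minus 8-cell difference was -0.22 for the falls, 0.18 for the rises and 0.0038 for all rows. Among the 20 lowest rows 18 were lower at 16-cell than at 8-cell, against 45.0% of rows of at least 5 TPM. A lower level at every successive stage from 8-cell to blastula was seen in 17 of the 20. The step from 32-cell to blastula was fixed by the choice of these rows, and the step before it shares the 32-cell column. These counts rest on the 8-cell column, whose traces of later messages were described above. With the 16-cell column as the baseline in place of 32-cell, 90 of the 104 named rises and falls were still 2-fold, and 69 with the scaling as well. The 104 were called from the same blastula column. That baseline also raised the rises over all rows from 559 to 2350 as deposited, so the 90 carry little weight.

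The same interval in explants, which are separate samples in a separately scaled table, gave most of the rows that passed 2-fold in progeny a difference of the same sign. The sample titles carry the same frog numbers in both tissues. Whether equal numbers mean the same frog is not stated, so explants may not be independent of progeny. Explants had 1364 rises (5.44%) and 200 falls (0.798%) among the 25062 rows, and 372 (1.48%) and 431 (1.72%) with median-of-ratios scaling. A minimum of 5 TPM left 116 explant falls. The 200 include the muscle rows actc1.L (-1.49) and actc1.S (-1.62), at 2.99 and 2.89 TPM in 32-cell explants, a column with traces of later messages. The 390 rows that rose in both were 69.8% of the rises in progeny and 28.6% of those in explants. The 43 rows that fell in both were 36.4% of the falls in progeny and 21.5% of those in explants. With the scaling the shared rises were 81, 52.9% of the progeny rises and 21.8% of the explant rises, and the shared falls 115, 52.5% of the progeny falls and 26.7% of the explant falls. By sign alone, 539 of the 559 progeny rises had an explant difference above 0, against 63.7% of all rows, and 98 of the 118 falls had one below 0, against 31.8% of all rows. The median explant difference was 1.17 for the progeny rises and -0.80 for the progeny falls. Opposite calls were 3 rows higher in progeny and lower in explants and 1 the other way, none of them with a gene symbol and all under 5 TPM at both stages in both tissues.

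Of the 20 highest rows 17 were also 2-fold higher in explants, the exceptions being myl6.S (0.52), lsm1.S (0.80) and pcna.S (0.82). Of the 20 lowest, 13 were also 2-fold lower in explants. pbk.L had 18.5 TPM in blastula explants, against 75.6 TPM in 32-cell explants (-1.97), close to the progeny values. grip2.L was the 1 row of the 20 with an explant difference above 0, at 1.41 TPM at blastula, against 1.37 TPM at 32-cell, levels well under those of progeny. In explants the spindle list held 12 falls and 4 rises in 110 rows. The proteasome list held 15 rises and 0 falls in 76 rows, and oxidative phosphorylation 19 rises and 0 falls in 147 rows. Over all rows in explants 5.44% rose and 0.798% fell. Some rises in progeny had an explant difference below 0. sod1.L differed by -0.23 there, ndufb2.S by -0.25 and ybx2.S by -0.04, and all 3 of these also had a 16-cell level in progeny above their blastula level. For cytosolic ribosomal proteins the median was 0.05 in progeny and -0.26 in explants, both as deposited, against 0.10 and 0.13 over all rows. The difference between the tissues was not tested.

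**Figure D5:**
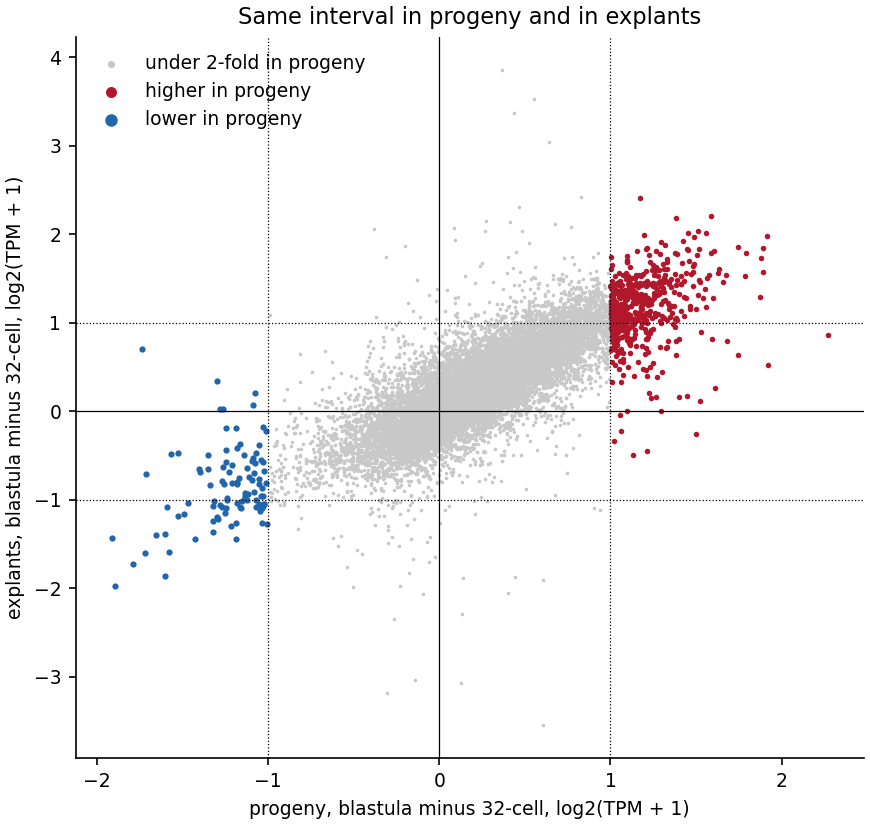
Difference between blastula and 32-cell in log2(TPM + 1) in progeny (horizontal) and in explants (vertical) for the 14776 rows of at least 5 TPM in the higher progeny column, with dotted lines at 2-fold. Of 503 rows higher in progeny (red) 495 lie above 0 in explants, and of 99 rows lower in progeny (blue) 93 lie below 0.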

How the data were processed

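TPM values were deposited by the authors as 1 table per tissue, with 1 column for each of 7 stages, per the file headers. Each column stands for the 3 samples of a group, joined in a way the sources used here do not give. TopHat, Bowtie2, Cufflinks and Cuffdiff are named without versions in the submitters' processing notes. The sources used here do not give the genome build, the annotation or the handling of reads shared by homeologs. The columns carry no depth, so no counting interval was possible.

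Blastula was compared with 32-cell as the difference in log2(TPM + 1), a pseudocount of 1, on rows of at least 1 TPM in 1 of the 7 progeny columns. With 1 pooled column per group there were no replicates and no test, and a difference of at least 1 (2-fold) was the rule of size. Differences on this scale understate the change of low rows. Median-of-ratios scaling, 7 further planned settings and 3 added after the data were seen were tried, and the counts that leave out the 8-cell column were also added then. Median-of-ratios factors came from rows above 0 in all 7 progeny columns. The script recovered known changes well above the rule of size in simulated data. Those changes were set in well-expressed rows with less spread than the real columns. The simulation therefore does not bear on low rows or on differences near 2-fold. Named rows are the 20 highest and 20 lowest with a symbol and at least 5 TPM, up to 4 rows per gene list with the widest differences, a fixed set of anchor genes whatever their value (nodal5 and dppa2 had no row), and the homeologs of these. The 26 gene lists, the anchors and the comparison itself were chosen with earlier results of these data known. Python 3.11.15, pandas 2.3.3, NumPy 2.4.6 and Matplotlib 3.10.9 were used. No sequences were analysed here, and some named rows are not reported here.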

Additional observations from a re-analysis of the deposited data

How the results depend on the processing

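Without replicates, the limits here are the scaling, the pseudocount and the choice of baseline column, and TPM without depth gives no counting error. As deposited, 559 rows were higher and 118 lower at blastula. Median-of-ratios scaling gave 153 higher and 219 lower, and over the 2 compared columns only, 216 higher and 219 lower. With a pseudocount of 0.1 the counts were 1305 and 350. The mean of the 3 cleavage columns as the baseline gave 1773 and 183, and with the scaling 368 and 509. The 16-cell column as the baseline gave 2350 and 194, and with the scaling 555 and 627. A pseudocount of 0.5, a minimum of 5 TPM, no filter and summed homeologs kept both counts within 1.5 times.

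Outside the cleavage range, 450 rows were above and 87 below. A pseudocount of 0.1 gave 912 and 145, the scaling 90 and 187, and summed homeologs 292 and 51. In explants, 1364 rows were higher and 200 lower. A pseudocount of 0.1 gave 2791 and 633, the scaling 372 and 431, and a minimum of 5 TPM left 116 lower. Between 16-cell and 8-cell, 135 rows were higher and 137 lower at 16-cell. A pseudocount of 0.1 gave 627 and 645, a pseudocount of 0.5 gave 246 and 234, and a minimum of 5 TPM left 72 and 20.

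Of the 104 named rows past 2-fold, 68 remained so with the scaling, 75 with scaling over the 2 columns, 96 with the mean baseline, 90 with the 16-cell baseline and 83 with homeologs summed. Either scaling alone lowers differences, so well-expressed falls could not be lost to it and its count bears on the rises. The scaling combined with the mean baseline left 75, and with the 16-cell baseline 69. Differences turned below 0 with the 16-cell baseline for ybx2.S (-0.30), sod1.L (-0.069) and ndufb2.S (-0.026). With that baseline and the scaling they did so for ybx2.S (-0.77), sod1.L (-0.54), ndufb2.S (-0.47), tpi1.L (-0.039) and eef1g.L (-0.017). With the mean baseline and the scaling ybx2.S lay at -0.0011, and with homeologs summed tpi1.L lay at -0.10. In each of these settings the 16-cell level enters or the S row is added, and beyond that the cause was not tested.

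No paired analysis was possible because each group is 1 pooled column without frog numbers. For the same reason the setting that leaves out each frog in turn was not run.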
